A study of Capra hircus with 3 samples.

Results

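Semaphorins, plexins, neuropilins, ephrins and Eph receptors were followed across 3 stages of fetal goat skin. Members were taken by symbol from the expression table, as every semaphorin, plexin, neuropilin, ephrin or Eph receptor named by its family root, class number and letter. The rule found 50 of the 16739 genes of the table, namely 20 semaphorins, 7 plexins, 2 neuropilins, 8 ephrins and 13 Eph receptors. All 50 were listed under the same symbol in RefSeq's gene table for assembly ARS1.2, from which only names were taken. RefSeq listed 52 symbols of this rule, and 2 of them had no row in the expression table.

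Semaphorins are secreted or membrane-bound guidance proteins that bind plexins, and the secreted class 3 semaphorins mostly reach their plexins through a neuropilin. Plexins act on small GTPases and the cytoskeleton, so that a cell turns away from, or sometimes toward, the source of the ligand. Neuropilins also bind members of the VEGF family and are known from blood vessels, lymphatics and myeloid cells. Ephrins stay on the cell surface, as lipid-anchored A-type or transmembrane B-type proteins, and signal with Eph receptor tyrosine kinases in both directions at cell contacts. In skin, these families are known from boundaries between cell groups, the epidermis, hair follicles, and the nerves and vessels that grow into the dermis.

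The samples were dorsal skin of Northern Shaanxi White Cashmere goat fetuses at embryonic day 60 (E60), E90 and E120, which the series text calls the induction, organogenesis and cytodifferentiation stages. Each stage was 1 library of at least 2 fetuses, whose cell suspensions were pooled before barcoding with the 10x Genomics 3′ version 3 kit. The E60 and E90 suspensions came from whole skin, by collagenase IV and pipetting. At E120 hair follicles were picked from collagenase-treated skin and dissociated with TypLE Express, so that preparation and stage cannot be told apart wherever E120 is compared. With 1 library per stage, no test between stages was possible, and all intervals below are exact 95% Poisson intervals that cover counting error only.

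The libraries held 6849 cells at E60, 6931 at E90 and 6896 at E120, and between 30277663 unique molecular identifiers (UMIs) at E90 and 93403291 at E120. The median cell had 8579, 3714 and 13064 UMIs in stage order, and the median share of mitochondrial UMIs was 4.52%, 11.1% and 5.26%. Between 9 and 13 cell barcodes were shared by each pair of libraries. Levels are given as CPM, the UMIs of a gene per 1000000 UMIs of the cells summed. A fixed 3 counts, given as a rough floor, was 0.0461, 0.0991 and 0.0321 CPM in the whole libraries.

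In each library, 47 of the 50 members had at least 1 UMI. At least 5 CPM was reached by 14 members at E60, 19 at E90 and 13 at E120, and at least 20 CPM by 8, 12 and 5. The median member stood at 1.38, 2.48 and 1.01 CPM, where the median of all genes was 1.92, 3.60 and 2.02 CPM. The summed level of each family gave the outline of the series. In stage order, semaphorins summed to 238 CPM (234 to 242), then 408 (401 to 415) and then 82.5 (80.6 to 84.3), so that the sum was highest at E90 and lowest at E120. Ephrins summed to 223, 436 and 239 CPM and Eph receptors to 32.6, 75.1 and 34.1 CPM, both with their highest sum at E90. Neuropilins stood at 127 CPM at both earlier stages and at 41.0 CPM (39.7 to 42.3) at E120. The plexins of the table, at 8.70, 21.5 and 29.2 CPM, were the only family with its highest sum at E120. Fewer cells of a type and less RNA per cell cannot be told apart in sums over a library.

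**Figure D1:**
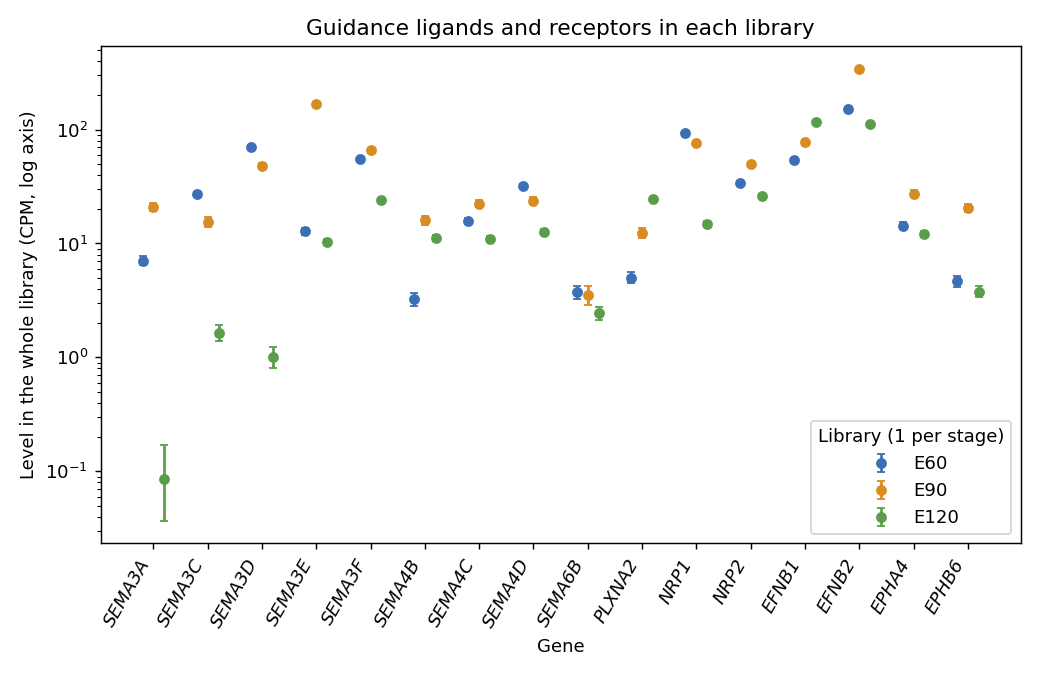
Level of 16 members in each whole library, in CPM on a log axis, with exact 95% Poisson intervals as bars (many are smaller than the point). SEMA3A, SEMA3C and SEMA3D lie below 2 CPM at E120, SEMA3E and EFNB2 are highest at E90, and PLXNA2 and EFNB1 are highest at E120.

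To find the cells behind these sums, each library was clustered apart with the 50 members left out of the clustering genes, which gave 82 clusters. Lists of cell type markers gave 73 clusters a name, written as "dermal-like" and so on. E60 was mostly dermal-like (5673 cells, 82.8%), and no E60 cluster was epithelial-like. In the E60 classes the 16 epithelial markers summed to between 0 and 5.85 CPM, and 8 of them had no UMI even in the dermal-like cells, so epithelial sources were not measured at E60 although the label is skin. E90 had 2403 epithelial-like (34.7%) and 1829 dermal-like cells (26.4%), and 2127 cells (30.7%) stayed unnamed, 1953 of them in a cluster led by mitochondrial genes. E120 had 5162 epithelial-like cells (74.9%), 365 endothelial-like cells and 222 dermal-like cells.

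RNA of one class also appeared in others, most of all at E90. In E90 the epithelial markers summed to 8008 CPM in epithelial-like cells but also to between 2872 and 5338 CPM in the other named classes, and at E120 to 2149 CPM against between 110.3 and 1042 CPM. The 117 erythroid-like cells of E90, with a median of 3674 UMIs, were used as a reference. The highest of these sums, 5338 CPM, was their own, and KRT15 was among their leading genes, so a level that does not exceed theirs is not shown to be background. A class was read as above it only where its lower bound exceeded the upper bound in these cells. Of 16 members described in full, this was so for 6 in dermal-like cells (EFNB1, EPHB6, NRP1, NRP2, SEMA3A and SEMA3D) and 4 in epithelial-like cells (EFNB1, EFNB2, SEMA3D and SEMA3E). It was so for 3 in endothelial-like cells (EFNB2, NRP1 and SEMA6B), 3 in mural-like cells (EFNB1, EPHA4 and NRP1), 2 in melanocyte-like cells (NRP2 and SEMA3D) and 1 in Schwann-like cells (EPHB6). In mast-like and myeloid-like cells of E90 none of the 16 exceeded it. The classes differed in depth, with 11173256 UMIs in epithelial-like, 348767 in mast-like and 291849 in myeloid-like cells, and shallow classes have wider intervals. The share of all genes past the same rule is not given here, so these counts do not rank the classes.

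**Figure D2:**
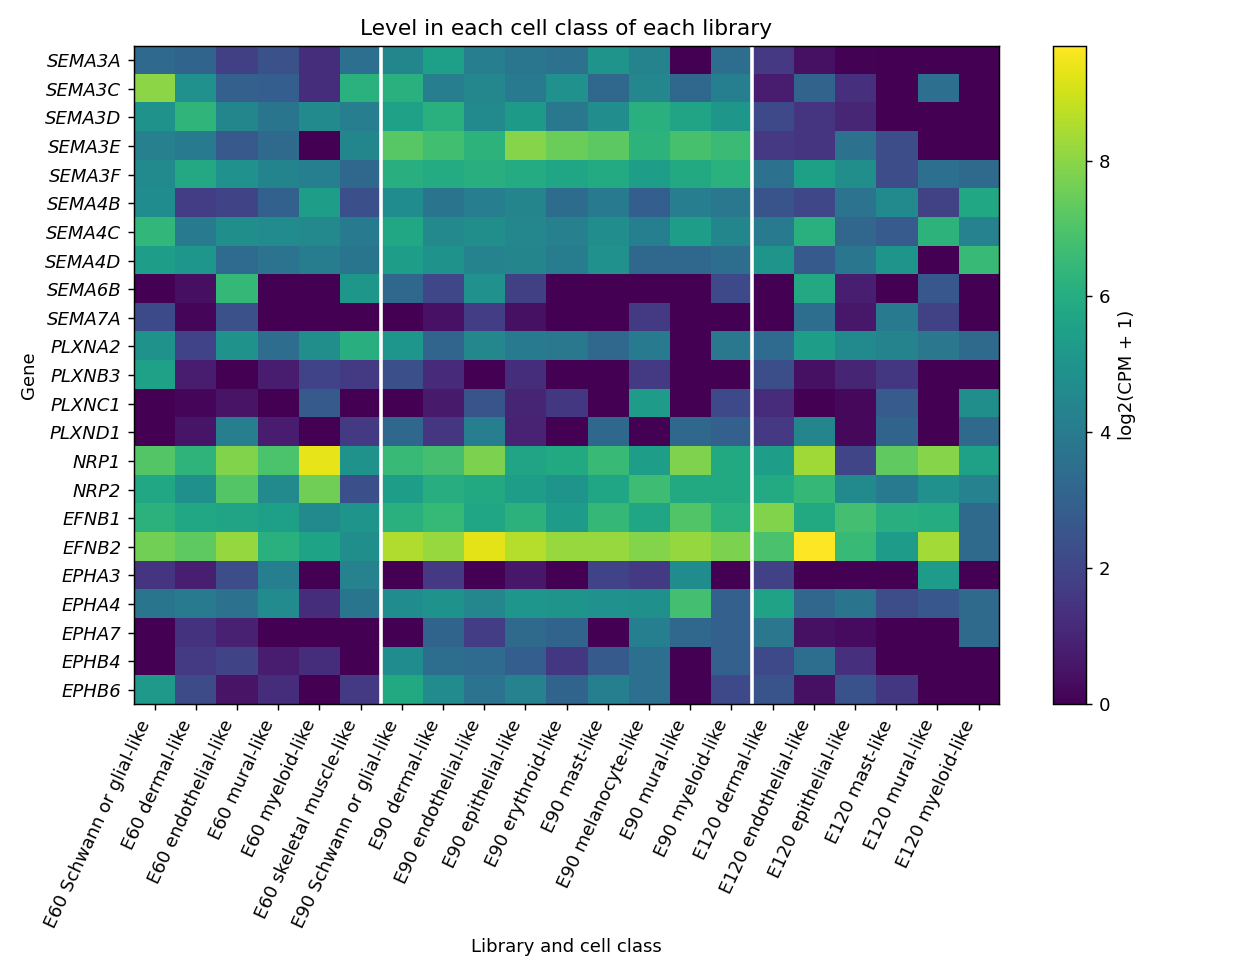
Level of 23 members in each named class of each library, as log2(CPM + 1), with white lines between libraries. At E90 all named classes, erythroid-like cells included, have SEMA3E between 74.8 and 245 CPM, whereas at E120 NRP1 runs from 3.04 CPM in epithelial-like to 318 CPM in endothelial-like cells.

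Among the ligands, 5 secreted class 3 semaphorins are described first. SEMA3A, a repellent of sensory axons that binds neuropilin-1, stood at 7.04 CPM (458 UMIs) at E60, 21.0 CPM (635 UMIs) at E90 and 0.0857 CPM (8 UMIs) at E120. It was thus nearly missing from the library of isolated follicles. Its highest E60 clusters were a tendon- or cartilage-like dermal cluster led by COL2A1 and TNMD (40.5 CPM, 29.3 to 54.5) and a dermal-like cluster led by MAP1LC3C, SMOC2 and SERPINF1 (37.5 CPM). At E90 it reached 113 CPM (95.1 to 133) in 173 dermal-like cells led by PENK, PAM and FNDC1, against 11.7 CPM (4.28 to 25.4) in erythroid-like cells.

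SEMA3C, a class 3 ligand known from outflow tract and vessel development, was at 27.1, 15.5 and 1.64 CPM in stage order. At E60 it sat in few cells. The SMOC2- and MAP1LC3C-led dermal-like cluster just named for SEMA3A made up 7.34% of E60 cells and held 59.8% of its UMIs, at 257 CPM (242 to 273). The 59 Schwann-like cells of E60 had 254 CPM (214 to 299), while the median E60 cluster had 2.99 CPM. The Schwann-like level was 70.6 CPM (41.1 to 113) at E90, where the interval overlapped that of erythroid-like cells (29.2 CPM, 16.3 to 48.1). At E120, where no Schwann-like cluster was named, 60 of 153 SEMA3C UMIs came from 135 epithelial-like cells led by SPP1, KRT14 and SOX9.

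SEMA3D, which acts on neural crest and endothelial cells in other tissues, was at 69.8 CPM (4539 UMIs) at E60, 47.9 CPM (1451 UMIs) at E90 and 1.01 CPM (94 UMIs) at E120. At E60 94.2% of its UMIs came from dermal-like cells, which held 82.5% of all UMIs. It was highest in 44 cells named as dermal condensate- or papilla-like, from BMP4 and SOX18 among their leading genes (242 CPM, 193 to 301), and in 386 dermal-like cells led by ISM1, ELAVL4 and C1QTNF7 (229 CPM, 212 to 247). At E90 the highest clusters were dermal-like cells led by COCH, DIPK1C and CAMK2B (199 CPM, 159 to 246) and a second condensate- or papilla-like cluster (145 CPM, 110.1 to 188). SEMA3D was therefore high in the condensate- or papilla-like cells of both earlier libraries. At E120 the papilla-like cells, led by FGF7, RSPO2 and RSPO3, were not among its 3 highest clusters, and all dermal-like cells together had 5 UMIs.

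SEMA3E, which binds plexin-D1 without a neuropilin and repels endothelial cells, was at 12.8 CPM at E60, 166 CPM at E90 and 10.3 CPM at E120. E90 was the high library, and the E60 and E120 levels were close, although their intervals (11.9 to 13.7, and 9.66 to 11.0) did not overlap. The class that held most of its UMIs differed between the stages, but so did the classes sampled. No E60 cluster was epithelial-like, and dermal-like cells held 82.5% of all UMIs at E60 and 1.59% at E120. At E60, 93.7% of SEMA3E UMIs were dermal-like, with 98.5 CPM (87.4 to 110.8) in a cluster led by CCL11, CYTL1 and CAPN6. The tendon- or cartilage-like cluster had 77.1 CPM. At E90 it reached 1067 CPM (977 to 1162) in 88 epithelial-like cells led by LMCD1, TNS4 and CBLN4, and 340.0 CPM (315 to 367) in a cluster led by PTHLH and INKA2. The erythroid-like cells of E90 carried 181 CPM (146 to 222), and dermal-like cells 108 CPM (101 to 115). Endothelial-like cells had 76.6 CPM (52.4 to 108). At E120, 264 epithelial-like cells led by CST6, KLK7 and KLK6 held 40.3% of its UMIs in 3.83% of the cells, at 272 CPM (246 to 301). That E120 cluster was shallow, with a median of 3959 UMIs.

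SEMA3F, a neuropilin-2 ligand that repels axons and endothelial cells, was spread more evenly at the earlier stages, at 54.7, 65.7 and 23.9 CPM. At E60 its levels in the 17 dermal-like clusters ranged from 37.2 to 101.5 CPM, a 2.73-fold range, where SEMA3D had a 14.7-fold range. At E90 no class exceeded the erythroid-like level of 50.6 CPM (33.0 to 74.1). At E120 it was highest in epithelial-like clusters led by hair keratin genes: 50 cells led by GPRC5D, KRTAP11-1 and KRT33A had 243 CPM (217 to 271), and 304 cells led by EFHD1, DSG4 and KRT85 had 87.5 CPM (80.7 to 94.8). The median E120 cluster had 11.6 CPM. None of those 50 cells was among the 6% of E120 cells with the highest doublet scores.

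**Figure D3:**
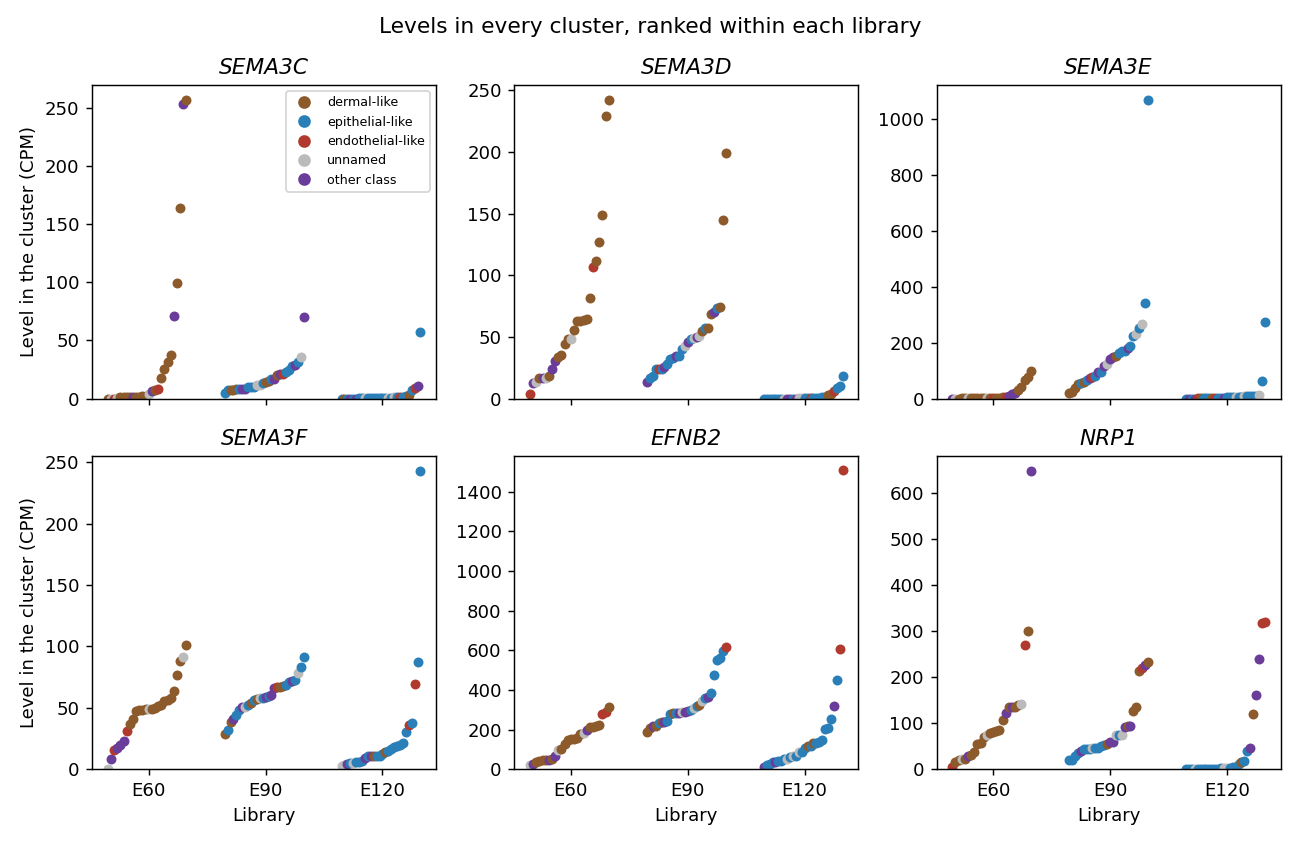
Level of 6 members in every cluster, in CPM, with clusters ranked within each library and coloured by class. A few clusters stand apart, such as 2 E60 clusters near 250 CPM for SEMA3C, 1 E90 epithelial-like cluster at 1067 CPM for SEMA3E and the endothelial-like clusters of E120 for EFNB2 and NRP1.

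Among the membrane-bound semaphorins, SEMA4B stood at 3.24, 16.1 and 11.3 CPM, SEMA4C, a ligand of plexin-B2, at 15.7, 22.4 and 10.9 CPM, and SEMA4D, the ligand of plexin-B1, at 32.1, 23.7 and 12.6 CPM. The first 2 were thus highest at E90 and SEMA4D at E60. SEMA4C was highest in the Schwann-like cells of E60 (85.2 CPM, 62.8 to 113, from 48 UMIs), and at E120 in mural-like (76.3 CPM) and endothelial-like cells (70.2 CPM, 60.8 to 80.7). SEMA4D was highest at E60 in 2 dermal-like clusters led by cell cycle and histone genes (58.2 and 56.0 CPM). SEMA4B was highest at E60 in myeloid-like cells (41.1 CPM, 27.5 to 59.0, from 29 UMIs). The E120 maxima of SEMA4B and SEMA4D lay in a 21-cell myeloid-like cluster and rested on 6 and 10 UMIs. In that cluster 15 of 21 cells were among those with the highest doublet scores, and the part of doublets in these values was not tested.

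SEMA6B, a class 6 ligand of A-type plexins, had low library levels of 3.72, 3.50 and 2.45 CPM, yet it was highest in the same class in each library. In endothelial-like cells it stood at 86.7 CPM (75.2 to 99.5) at E60, but at 28.7 CPM (14.8 to 50.2, from 12 UMIs) in the E90 library. At E120 it was at 57.1 CPM (48.6 to 66.6). These cells held 84.3% of its UMIs at E60 and 70.3% at E120, with 3.62% and 3.02% of all UMIs. The E60 and E120 dermal-like cells had 17 and 0 SEMA6B UMIs, and the interval of the 0 UMIs reached 2.48 CPM. Skeletal muscle-like cells of E60 had 33.5 CPM (19.1 to 54.4, from 16 UMIs). The E90 endothelial-like interval overlapped those of Schwann-like (1.01 to 30.0) and mural-like cells (0 to 30.8), among others.

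Among the receptors, the 7 plexins of the table did not include PLXNB2 or PLXNA4, whose levels are therefore not known here. These 7 were low throughout, and 6 of them stayed under 5 CPM in every library. The exception was PLXNA2, a receptor for class 6 semaphorins and, with neuropilins, for class 3, at 5.03 CPM (327 UMIs) at E60, 12.5 CPM (378 UMIs) at E90 and 24.4 CPM (2277 UMIs) at E120. Its highest cells were skeletal muscle-like at E60 (67.0 CPM, 45.8 to 94.6, from 32 UMIs). At E120 they were 202 epithelial-like cells led by CNFN, SERPINB13 and MMP1 (94.0 CPM, 84.5 to 104) and 90 endothelial-like cells (77.1 CPM, 57.6 to 101). Of the low plexins, 3 are named here after their values had been seen, because 1 class stood out for each. PLXND1, the receptor of SEMA3E, was at 16.6 CPM (39 UMIs), 16.8 CPM (7 UMIs) and 20.2 CPM (57 UMIs) in the endothelial-like cells of E60, E90 and E120, where the median clusters had 0.465, 1.46 and 0.181 CPM. PLXNB3, a receptor of SEMA5A, was at 46.2 CPM (30.2 to 67.6, 26 UMIs) in the Schwann-like cells of E60. PLXNC1, the receptor of SEMA7A, was at 38.4 CPM (22.8 to 60.8, 18 UMIs) in the melanocyte-like cells of E90, which held 40.9% of its UMIs in that library.

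NRP1, the co-receptor for SEMA3A and VEGF, stood at 93.3 CPM at E60, 76.8 CPM at E90 and 15.0 CPM (14.2 to 15.8) at E120, its lowest library. At E60 it was highest in myeloid-like cells led by SPP1, CCL8 and CD163 (649 CPM, 590 to 711), and at 301 CPM (260.1 to 347) in 73 cells led by ITGA7, EBF2 and IGFBP2. These were counted as dermal-like by their markers, but their 10 leading genes held none of the dermal markers, and ITGA7, IGFBP2 and MYLK were shared with those of the mural-like cluster of E60. The endothelial-like cells of E60 had 227 CPM (208 to 247), those of E90 220.2 CPM (177 to 270.0) and those of E120 318 CPM (297 to 339). The lower library level of E120 was therefore not seen within endothelial-like cells. At E120 these cells held 64.1% of NRP1 UMIs, whereas epithelial-like cells, with 82.7% of all UMIs, had 3.04 CPM (2.67 to 3.46). Mural-like and mast-like cells of E120 had 239 CPM (193 to 294) and 161 CPM (128 to 199).

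NRP2, the co-receptor for SEMA3C and SEMA3F that also marks lymphatic vessels, was at 33.9, 49.7 and 26.1 CPM in the libraries. At E60 it reached 349 CPM (292 to 413) in a 23-cell lymphatic-like endothelial cluster led by CCL21, MMRN1 and LYVE1, and 193 CPM (162 to 228) in myeloid-like cells. At E90 it was at 189.5 CPM (137 to 256) in 35 epithelial-like cells led by CXCL10, FGF20 and TNFRSF11B, with SHH among their 10 leading genes. The next E90 clusters were 136 dermal-like cells led by COL28A1, LRRTM2 and PAPPA2 (162 CPM, 132 to 196), and melanocyte-like cells had 100.4 CPM (73.8 to 134). The level in E90 erythroid-like cells was 31.1 CPM (17.8 to 50.5). At E120 the class highest in NRP2 was endothelial-like (87.2 CPM, 76.7 to 98.9), while an epithelial-like cluster led by SMOC2, KRT8 and ADM had 94.4 CPM. The E60 endothelial-like level of 135 CPM (121 to 151) included the lymphatic-like cells, without which the other 117 cells had 93.5 CPM, and no lymphatic-like cluster was named at E90 or E120. At E120 epithelial-like cells had 23.9 CPM (22.8 to 25.0).

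EFNB2, the B-type ephrin known as a marker of arterial endothelium and as a ligand of EPHB4, had a library level of 152 CPM at E60, 337 CPM at E90 and 112 CPM at E120. E90 was again the high library. In endothelial-like cells its level was higher at each later stage, from 286 CPM (264 to 308) at E60 through 617 CPM (544 to 698) to 822 CPM (789 to 857) at E120, and these intervals did not overlap. At E120 the step rested on 1 of the 2 endothelial-like clusters: 90 cells led by ESM1, SOX18 and DEPP1 had 1507 CPM (1416 to 1603) and 275 cells led by PLVAP, SPARCL1 and KDR had 607 CPM (575 to 641), no higher than the E90 level. Other high clusters were the ISM1-led dermal-like cells of E60 (316 CPM, 296 to 337), which were also high in SEMA3D, and the PTHLH-led epithelial-like cells of E90 (595 CPM, 561 to 630). At E120 the CST6-led epithelial-like cells named for SEMA3E followed, at 448 CPM. In the E90 erythroid-like cells EFNB2 was at 289.8 CPM (245 to 340.2), and the E90 dermal-like level of 288 CPM lay within that interval.

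EFNB1, a B-type ephrin known from boundaries in craniofacial and skeletal development, stood at 53.9 CPM at E60, 77.5 CPM at E90 and 116 CPM at E120. Its level was thus higher at each later stage. At E60 its highest cluster was that of the ITGA7-led cells also high in NRP1 (136 CPM, 109 to 167), and at E90 the COL28A1-led dermal-like cells also high in NRP2 had 214 CPM (180.1 to 253). At E120 the 158 papilla-like cells had 248 CPM (219 to 278), next to 231 CPM (208 to 256) in 149 epithelial-like cells led by SMOC2, KRT8 and ADM.

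EPHA4, which binds A-type and B-type ephrins, was at 14.4, 27.3 and 12.1 CPM. At E60 its highest cluster was the CCL11-led dermal-like cells (55.1 CPM, 46.8 to 64.4), also the highest in SEMA3E. At E120 it was the papilla-like cells (53.7 CPM, 41.1 to 69.0). All epithelial-like cells of E120 together stood at 12.1 CPM (11.4 to 12.9), but the highest of their clusters, the SPP1-led cells, had 39.9 CPM. At E90 the highest EPHA4 cluster was the 27 mural-like cells, with 13 UMIs (108 CPM, 57.8 to 186). EPHB6, a receptor without kinase activity, was at 4.64, 20.5 and 3.78 CPM. It was highest in Schwann-like cells at E60 (37.3 CPM, 23.1 to 57.0) and E90 (58.1 CPM, 31.8 to 97.5, from 14 UMIs). At E120, 56 of its 353 UMIs came from the SPP1-led epithelial-like cells (53.2 CPM, 40.2 to 69.1), which were also the highest cluster in SEMA3C.

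The other 34 members did not exceed 16.2 CPM in any library, the highest being EFNA2. A few of them are named here and in the stage comparisons, chosen after their values had been seen. EPHA1, an epithelial Eph receptor, was at 0.0615 CPM (4 UMIs), 4.19 CPM (127 UMIs) and 10.9 CPM (1014 UMIs), in the order in which epithelial-like cells made up the libraries. EPHA7 was at 1.46, 8.12 and 0.439 CPM. It was highest at E60 in the tendon- or cartilage-like cells (43.3 CPM, 31.7 to 57.7), at E90 in 129 epithelial-like cells led by SPP1, PAEP and EHF (49.7 CPM, 33.5 to 70.9) and at E120 in the papilla-like cells (17.6 CPM, 10.8 to 27.2). EPHA3 was at 16.9, 25.0 and 39.5 CPM in the mural-like cells of E60, E90 and E120, from 24, 3 and 15 UMIs, and at E120 these 65 cells held 75% of its UMIs. Skeletal muscle-like cells of E60 were no lower, at 18.8 CPM (8.62 to 35.8, from 9 UMIs). The E90 mural-like interval of EPHA3 (5.16 to 73.2) overlapped those of all other named classes except dermal-like and epithelial-like cells. EPHB4, the venous partner of EFNB2, was at 2.98 CPM (7 UMIs), 9.57 CPM (4 UMIs) and 10.3 CPM (29 UMIs) in endothelial-like cells. Its E90 count there is too low to place it above or below E60 or E120.

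**Figure D4:**
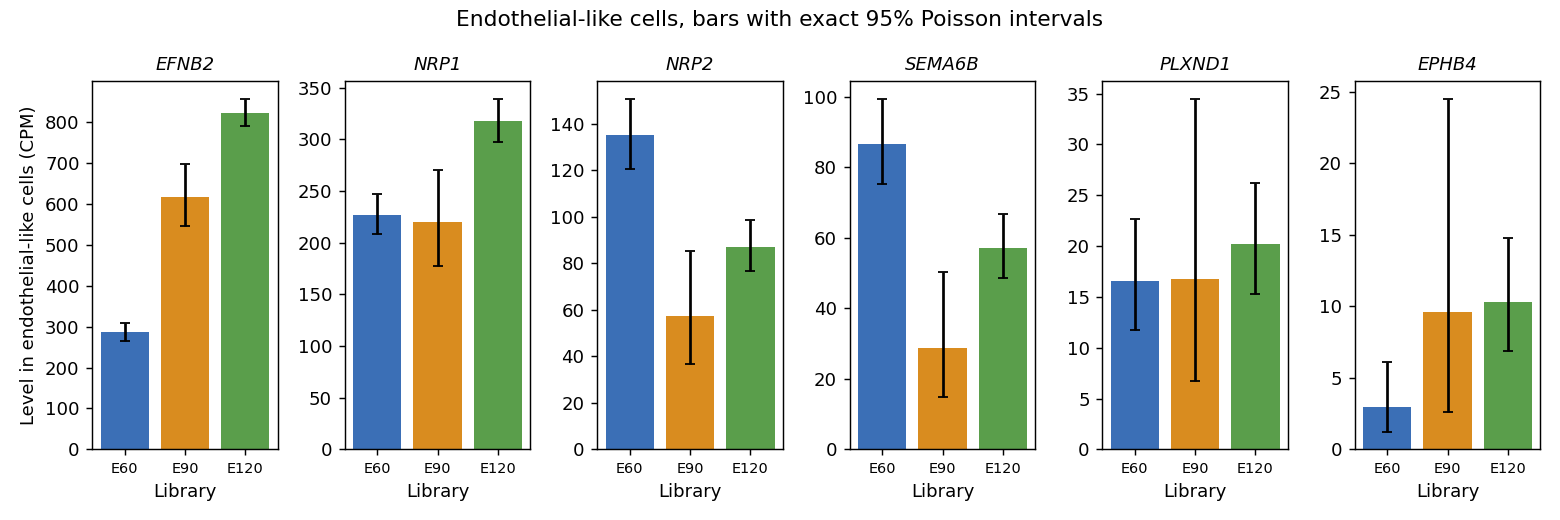
Levels in the endothelial-like cells of each library, in CPM from 0, with exact 95% Poisson intervals as error bars and 1 library per bar. EFNB2 is higher at each later stage (at E120 by its 90 ESM1-led cells), NRP1 is highest at E120, NRP2 and SEMA6B are highest at E60 (NRP2 is at 93.5 CPM there without the lymphatic-like cluster), and the E90 bars of PLXND1 and EPHB4 rest on 7 and 4 UMIs.

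A member described in full was given a highest class in a library only where that class had at least 50 of its UMIs. At E60 this left 7 members, of which 2 were highest in myeloid-like (NRP1 and NRP2), 2 in endothelial-like (EFNB2 and SEMA6B), 2 in dermal-like (SEMA3D and SEMA3F) and 1 in Schwann-like cells (SEMA3C). At E90 it left 4, of which 2 were highest in dermal-like (SEMA3A and SEMA3D), 1 in endothelial-like (EFNB2) and 1 in epithelial-like cells (SEMA3E). At E120 it left 9, of which 6 were highest in endothelial-like (EFNB2, NRP1, NRP2, PLXNA2, SEMA3F and SEMA6B), 2 in dermal-like (EFNB1 and EPHA4) and 1 in epithelial-like cells (SEMA3E). The minimum leaves out members highest in a rare class, such as NRP1 at E90 and SEMA4C at E120 (27 and 29 UMIs in mural-like cells). The share of all genes highest in each class is not given here, so these counts only list the members. For SEMA3F, PLXNA2 and NRP2, single epithelial-like clusters of E120 (243, 94.0 and 94.4 CPM) exceeded the endothelial-like class (44.3, 41.9 and 87.2 CPM). The intervals of SEMA3A at E90 and SEMA3E at E120 overlapped those of the second class, mast-like cells. With all libraries clustered together, 3 of these highest classes changed: EFNB2 at E90 became epithelial-like, NRP2 at E60 endothelial-like and SEMA3C at E60 skeletal muscle-like. SEMA3D at E90 stood at 70.8 CPM in dermal-like and 70.5 CPM in melanocyte-like cells, and 3 other settings put the melanocyte-like cells first.

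For each pair of stages the log2 of (later CPM + 1) over (earlier CPM + 1) was taken, and a gene was called higher or lower past a ratio of 1 or -1 with at least 5 CPM in the higher sum. The E90 library enters both comparisons of neighbouring stages, so their values are not independent. Of 19 members past the minimum in E90 against E60, 9 were called higher and 0 lower, where 24% of all genes were called higher and 7.45% lower. These were 4 semaphorins (SEMA3A, SEMA3E, SEMA4B and SEMA6A), 3 Eph receptors (EPHA7, EPHB4 and EPHB6), EFNB2 and PLXNA2. SEMA3E had the largest log2 ratio (3.60, 3.47 to 3.73), SEMA4B followed (2.01), and SEMA3C had the lowest (-0.77). The median member was at 0.88 and the median gene at 0.25. The median share of mitochondrial UMIs was also higher and the depth lower at E90, and their part in these ratios was not tested.

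In E120 against E90, 1 of 20 members past the minimum was called higher and 13 lower, where 9.15% of all genes were called higher and 25.7% lower. The lower members included 6 semaphorins, 4 Eph receptors, NRP1, EFNB2 and EFNA2, and EPHA1 was the higher one (1.19). SEMA3D (-4.61, -4.83 to -4.38), SEMA3A (-4.34, -4.51 to -4.12) and SEMA3E (-3.89, -4.01 to -3.76) had the lowest ratios. The median member was at -1.40 and the median gene at -0.30. In E120 against E60, 4 of 16 members were called higher (EFNB1, EPHA1, PLXNA2 and SEMA4B) and 7 lower (EFNA2, NRP1, SEMA3A, SEMA3C, SEMA3D, SEMA3F and SEMA4D), where 19.8% of all genes were called higher and 21.2% lower. There the median member was at -0.46 and the median gene at 0.07. SEMA3E and EFNB2, the members highest at E90, were close to level between E60 and E120, at -0.28 and -0.43.

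**Figure D5:**
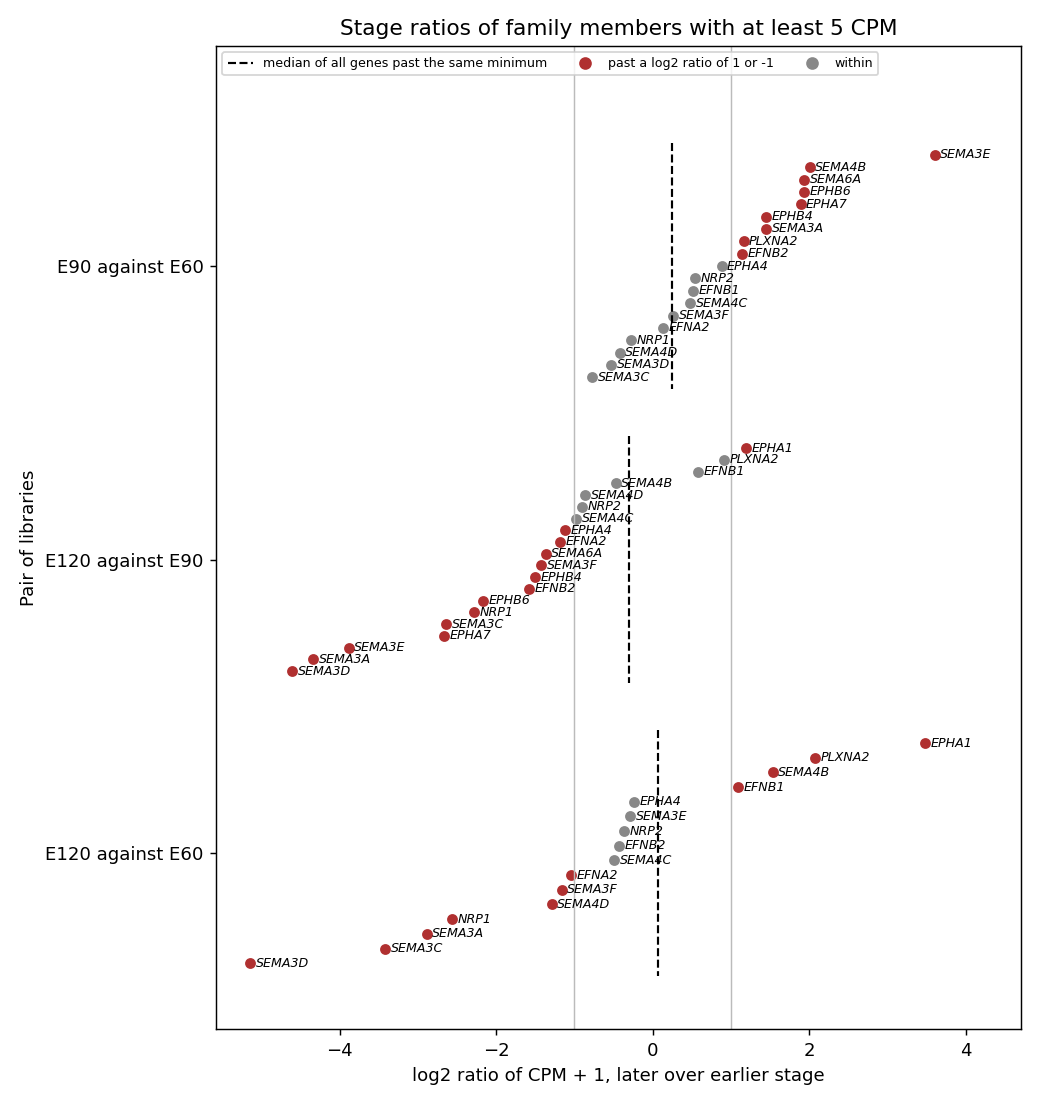
Log2 ratio of CPM + 1 between whole libraries for the members with at least 5 CPM in the higher one, 1 point per gene, red past 1 or -1, with the median of all genes past the same minimum as a dashed line. In E120 against E90 13 of 20 members lie below -1, down to SEMA3D at -4.61, and in E90 against E60 none does.

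Epithelial-like cells could be compared between E90 and E120 only. Of 20 members past the minimum, 0 were called higher and 14 lower, where 8.13% of all genes were called higher and 29.9% lower. SEMA3E stood at 245 CPM (236 to 254) at E90 but at 11.1 CPM (10.4 to 11.9) at E120, EFNB2 at 392 and 92.5 CPM, and NRP1 at 48.8 and 3.04 CPM. EFNB1 (0.57), PLXNA2 (0.64) and EPHA1 (0.81) were the members with ratios above 0. Of the 14 lower members, 3 (EFNB2, SEMA3D and SEMA3E) had exceeded the level of erythroid-like cells at E90 and 11 had not, among them NRP1, which stood at 58.3 CPM (39.4 to 83.3) in erythroid-like cells. With scaling by the median ratio of genes in place of the total, 11.5% of all genes were called higher and 24.0% lower, and 1 and 13 members. The shift between both scalings was -0.22 on the log2 scale here, -0.15 in whole libraries of E120 against E90 and 0.19 in dermal-like cells of E90 against E60.

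In dermal-like cells, 10 of 21 members were called higher and 0 lower in E90 against E60, where 31.9% of all genes were called higher and 5.86% lower. The largest ratios were those of SEMA3E (2.81), SEMA6A (2.47), EPHB6 (2.42) and SEMA3A (2.35). SEMA3A stood at 7.75 CPM at E60 and 43.6 CPM (39.1 to 48.4) at E90, EPHB6 at 3.82 and 24.7 CPM (21.4 to 28.4), and NRP2 at 28.2 and 64.8 CPM (59.3 to 70.6). These 3 of the 10 exceeded the level of E90 erythroid-like cells, and the other 7, SEMA3E among them, did not, which does not tell whether their RNA came from the dermal-like cells. The largest E90 dermal-like cluster held 1312 of the 1829 cells. Without it, an alternative chosen after the data had been seen, the ratio was 3.03 for SEMA3A and 1.55 for NRP2, but 1.24 for SEMA3E and 0.01 for PLXNA2, and 10 members were higher and 1, SEMA3C at -1.25, was lower. Of all genes 36.9% were then higher and 6.26% lower, and the median gene was at 0.56, from 0.44. Without the ITGA7-led cells of E60, chosen in the same way, the same 10 members were higher and 0 lower.

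In E120 against E90 dermal-like cells, 1 of 22 members was called higher and 13 lower, where 11.3% of all genes were called higher and 15.1% lower. EFNB1 was the higher one, at 89.7 CPM (83.2 to 96.5) and 232 CPM (208 to 258), with a log2 ratio of 1.36 (1.10 to 1.62). SEMA3D stood at 70.8 and 3.36 CPM and SEMA3A at 43.6 and 2.02 CPM, the E120 values resting on 5 and 3 UMIs. The interval of the log2 ratio was -5.22 to -2.90 for SEMA3D and -5.13 to -2.54 for SEMA3A. NRP1 was at 113 and 41.0 CPM (-1.44). EPHA4 (0.60, 0.08 to 1.11) and NRP2 (-0.11, -0.55 to 0.31) were not called. The 222 E120 dermal-like cells were 158 papilla-like cells and 64 cells led by COL1A2 and COL1A1, so the dermal-like cells of the libraries were of different kinds. Without the largest E90 cluster, 3 members were called higher and 11 lower, where 11.7% of all genes were higher and 19.9% lower. EFNB2 (-1.27 with it, -0.94 without) and SEMA4B (-1.22 and -0.86) were no longer called.

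Several members bind each other by textbook knowledge, and their highest classes can be set side by side as levels, which do not show that a signal passes. SEMA3E was highest in epithelial-like cells at E90 and E120. PLXND1 was highest in endothelial-like cells at E120 (57 UMIs), and also at E60 and E90, from 39 and 7 UMIs. At E120 the interval overlapped those of mast-like (7.74 CPM, 2.11 to 19.8) and myeloid-like cells (9.19 CPM, 0.233 to 51.2). At E90 it overlapped those of mast-like (8.60 CPM, 1.77 to 25.1), Schwann-like, mural-like and myeloid-like cells, among others. SEMA3A was highest in dermal-like cells at E90 (43.6 CPM), where NRP1 had its highest levels in mural-like (225 CPM, 27 UMIs) and endothelial-like cells. At E120 NRP1 stood at 318 CPM in endothelial-like cells, while 8 SEMA3A UMIs were left in the whole library. At E60 the class highest in SEMA3C was Schwann-like (254 CPM), but it held 8.10% of the SEMA3C UMIs, against 87.9% in dermal-like cells. The SMOC2- and MAP1LC3C-led dermal-like cluster of E60 had 257 CPM. NRP2 was highest there in myeloid-like cells and in the lymphatic-like cluster. With all libraries clustered together, the highest E60 class became skeletal muscle-like for SEMA3C and endothelial-like for NRP2. EFNB2 was highest in endothelial-like cells at all 3 stages, but with all libraries clustered together its highest E90 class became epithelial-like. EPHB4 stood in endothelial-like cells at 2.98 CPM at E60, from 7 UMIs, with an interval that covered the dermal-like level of 2.12 CPM. At E120 its endothelial-like level was 10.3 CPM (6.89 to 14.8, from 29 UMIs) against 3.36 CPM (1.09 to 7.84) in dermal-like cells. At E90 the highest EPHB4 level was that of Schwann-like cells (24.9 CPM, from 6 UMIs). At E120 both EFNB1 and EPHA4 were highest in papilla-like cells.

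Other genes of these pathways were taken from a list of 75 symbols, of which 66 were in the table. In E90 against E60, 14 of 37 past the minimum were called higher and 3 lower, against 24% and 7.45% of all genes, with a median of 0.23 where that of all genes was 0.25. The highest ratios were those of TIAM1, a Rac exchange factor (21.6 and 172 CPM), NGEF, an exchange factor downstream of EPHA4 (0.277 and 7.99 CPM), and PLXDC2 (1.08 and 7.96 CPM). The 3 lower genes were CHN1, a Rac-inactivating partner of EPHA4 (141 and 13.9 CPM), the endothelial receptor ROBO4 (15.4 and 5.78 CPM) and SLIT3 (28.9 and 13.4 CPM).

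In E120 against E90, 5 of 38 were called higher and 18 lower, against 9.15% and 25.7% of all genes, with a median of -0.85 beside -0.30 over all genes. The highest ratios were those of the netrin receptor UNC5B (0.628 and 6.78 CPM), MICAL2, a relative of the plexin-bound MICAL1 (2.31 and 11.0 CPM), and RND1, a GTPase that binds plexins (5.58 and 16.3 CPM). The lowest were those of the SLIT receptor ROBO2 (136 and 1.90 CPM), DPYSL3, of the collapsin response mediator family (129 and 7.42 CPM), and the ligand NTN1 (17.6 and 0.846 CPM). In E120 against E60, 9 of 37 were higher and 14 lower, against 19.8% and 21.2% of all genes. Their median was -0.74, that of all genes 0.07, and NGEF, MICAL2 and UNC5B were at the top. ROBO2 (138 and 1.90 CPM), CHN1 (141 and 3.75 CPM) and RGMA, a neogenin ligand (94.2 and 6.76 CPM), were at the bottom.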

How the data were processed

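Libraries were processed with Cell Ranger 3.0.2, per the submitters' processing notes. The genome build, the annotation and the filters on cells are not given in the sources used here. The authors deposited natural log values, which the values show to be the natural log of 1 plus counts scaled to 10000 per cell. UMI counts were recovered by inversion, and 100% of values came out whole within 0.01. The planned analysis had assumed counts. The table held 20676 cells, 971 more than the 19705 of the series text, and all were used.

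Each library was clustered apart (2000 variable genes without the members, 30 principal components, 20 neighbours, Leiden resolution 1; leidenalg 0.10.2, igraph 0.11.9, scikit-learn 1.9.0, numpy 2.4.6, scipy 1.17.1, Python 3.11.15). A marker was found in a cluster when in at least 10% of its cells and at least 2 times its 20th percentile over the clusters of that library. A class needed 3 markers. A cluster stayed unnamed where another class's markers, or at least 3 mitochondrial or haemoglobin genes, led its 10 leading genes, or where its cells were over 3 times shallower than their library with no own marker leading. A part name such as papilla-like needed at least 2 leading markers of that part. This scoring was chosen with the data in view.

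Doublets were scored in each library by simulated doublets, and no cell was removed except in an alternative. The top 6% of scores held 25.4% of mural-like, 18.6% of Schwann-like, 15.7% of myeloid-like and 2% of skeletal muscle-like cells at E60. The part of doublets in the levels of these classes was not tested. UMIs were summed per library, class of at least 20 cells or cluster, and calls used a pseudocount of 1 CPM. A simulated run recovered every planted change. Since calls rest on a fixed ratio, such a run checks the calculation only, and not free RNA, cell make-up or the spread between fetuses. A member was described in full at 20 CPM or more in a library or 50 CPM or more in a class. The members and gene lists were chosen with earlier results of these data known.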

Additional observations from a re-analysis of the deposited data

How the results depend on the processing

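No paired analysis was possible because each stage was 1 library. Over the scaling, cell and cluster settings, 517 recomputed log2 ratios of the 16 members described in full stayed within their counting interval, 107 moved, and 0 of those called changed sign. A pseudocount of 10 CPM moved 53 of 96. The counts of members called moved by over 1.5 times mainly where the rule itself was changed, since a larger pseudocount or minimum leaves fewer genes that can be called. The share of all genes called under each setting is not given beside the counts in this section. These counts therefore show how the calls depend on the setting, and not whether the members differ from all genes. With a pseudocount of 10 CPM the members called higher and lower were 3 and 0 in E90 against E60, 0 and 8 in E120 against E90, 2 and 3 in E120 against E60, 0 and 6 in epithelial-like cells, 4 and 0 in dermal-like cells of E90 against E60, and 8 were lower in dermal-like cells of E120 against E90. With at least 20 CPM in the higher sum 4 were higher in E90 against E60, 0 higher and 8 lower in E120 against E90, 2 higher in E120 against E60, 7 lower in epithelial-like cells, 4 higher in the earlier and 7 lower in the later dermal-like comparison. Without a filter on low values 1 was lower in E90 against E60, 2 were higher in E120 against E90, 8 higher and 12 lower in E120 against E60, 1 higher in epithelial-like cells, 1 lower in dermal-like cells of E90 against E60 and 3 higher in those of E120 against E90.

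Keeping only cells of 1000 genes or more and 10% mitochondrial UMIs or less (2756 at E90) left 0 higher in E120 against E90. Median-of-ratios scaling gave 2 higher there and 1 in epithelial-like cells. Clustering all libraries together gave 1 higher in epithelial-like cells, 1 lower in dermal-like cells of E90 against E60 and 3 higher in those of E120 against E90. There, leaving out the top 6% of doublet scores, equal weight for every cell and Leiden resolutions of 0.5 and 2 each gave 2 higher. For these the cause was not tested. Without the largest E90 dermal-like cluster, the values were 1 lower and 3 higher.

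Of the pathway list, a pseudocount of 10 CPM gave 3 higher and 1 lower in E90 against E60, 0 and 11 in E120 against E90 and 9 lower in E120 against E60. At least 20 CPM gave 7 higher in E90 against E60, 0 higher and 9 lower in E120 against E90, and 4 higher and 9 lower in E120 against E60. Depth limits the rare classes most: 3 counts are 25.0 CPM in E90 mural-like and 27.6 CPM in E120 myeloid-like cells.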
